A study of Mus musculus with 6 samples.

Results

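The genes described here encode the protein subunits of the mitochondrial ribosome that carry the names Mrps (small subunit) and Mrpl (large subunit). They were taken by name: every probe whose RefSeq accession belongs to a mouse gene called Mrps or Mrpl followed by a number and at most 1 letter. This gave 78 genes, 29 of the small subunit and 49 of the large, measured by 100 probes, out of 20648 named genes and 55654 probes on the array. Spheres, which are free-floating cell clusters, were made from mammary tumors of FRS2beta knock-out mice (ko) and of FRS2beta hetero mice (hetero). FRS2beta is an adaptor that docks on receptor tyrosine kinases and is encoded by Frs3. Each genotype had 3 single-colour arrays of Cy3-labelled total RNA. All spheres grew in DMEM/F12 that held B27, heparin (2 mg/mL) and the growth factors EGF and bFGF (20 ng/mL of each). No wild type group was analysed here, so the hetero spheres, which carry the mutant allele as well, served as the comparison group. The strain and age of the mice, the driver of the tumors and the number of tumors are not given in the sources used here, nor is whether the replicates came from separate animals or cultures, so a p-value here reflects the spread of these samples alone, and that spread may be technical.

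Mitochondria keep a small genome that encodes core subunits of the respiratory chain, and they translate it with a ribosome of their own. The ribosomal RNAs come from the mitochondrial genome, while every protein of this ribosome is encoded in the nucleus, made in the cytosol and imported. Some of these proteins descend from those of bacterial ribosomes, and others were added in mitochondria and have no bacterial counterpart. The small subunit reads the mRNA, and the large subunit joins the amino acids and passes the new chain to the inner membrane.

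Signals are given on the log2 scale after subtraction of each array's 75th percentile, and a change is the ko mean minus the hetero mean on that scale. That percentile lay at an intensity of 465 to 487 on ko arrays and of 404 to 416 on hetero arrays. Across genes, scaled arrays of 1 genotype correlated at 0.995 to 0.998 with each other, and at 0.966 to 0.971 with those of the other genotype. The probe for Frs3 was well above background on 0 of 3 ko arrays and on 1 of 3 hetero arrays, so it does not check the labels. Markers of cell types differed widely between the genotypes in limma's test. All 11 epithelial markers, led by the keratins Krt8 and Krt7, were higher in ko spheres, with a summed signal of 188 to 191 times the 75th percentile on ko arrays against 21.3 to 21.5 on hetero arrays. All 10 macrophage markers tested, led by Lyz2 and Ctss, were lower in ko spheres, with sums of 8.61 to 8.71 against 24.1 to 24.5. Of 8 fibroblast markers 6 were lower and 1 was higher in ko (sums 1643 to 1701 in ko, 2126 to 2348 in hetero), and of 6 endothelial markers 4 were lower and 1 was higher (17.3 to 18.5 in ko, 23.1 to 23.8 in hetero). Of 7 T and B cell markers only 3 passed the background filter, with Cd3e lower in ko and Ms4a1 higher, the last of which passed only through the ko arrays (sums 3.07 to 3.31 in ko, 4.16 to 4.85 in hetero). Of 16 cell cycle genes 8 were higher and 0 were lower in ko (95.9 to 97.8 in ko, 91.1 to 92.7 in hetero). Of all genes tested, 27.8% were higher and 32.6% lower in ko in the same test. These directions and sums are those of 75th percentile scaling. With spike-in scaling, described below, the median change of all genes was 0.39, against -0.03. The smaller falls, as among fibroblast and endothelial markers, may not hold under it. In such bulk RNA fewer cells of a type and less RNA per cell cannot be told apart, and the part of these cell types in the results on ribosomal genes was not tested.

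The mitoribosomal protein genes changed little, and in both directions. Of the 78 genes, 77 were well above background on all 6 arrays and were tested. At a threshold of 0.05 on p-values from limma, after Benjamini-Hochberg adjustment across 15838 genes, 34 of them were called, which is 44.2%, against 60.4% of all genes tested. In ko spheres 18 members were called higher, or 23.4% against 27.8% of all genes, and 16 were called lower, or 20.8% against 32.6%. The other 43 did not pass the test. No member was called with a change of at least 1.5-fold, while 17.9% of all genes were called with such a change. The 3 ko signals and the 3 hetero signals did not overlap for 46 members, 25 higher and 21 lower in ko, against 68.9% of all genes.

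The narrow range of the changes was measured with narrow errors. The median change was 0.01 on the log2 scale, with quartiles at -0.08 and 0.10, and the mean change was 0.0095. By the brightest probe of each gene, members ran from -0.25 for Mrps17 to 0.24 for Mrpl47, apart from Mrpl10 at 0.32, which is described below. The median size of a change, without its sign, was 0.09 for the members and 0.22 for all genes tested. The 95% interval of the change lay wholly within 1.5-fold for 76 of the 77 members, and for 67.8% of all genes. The exception was Mrpl10. The median standard error of a change was 0.028 for members and 0.041 for all genes. The members were also brighter, with a median signal of 3.42 to 3.48 on an array, against 0.53 to 0.58 for all genes. The part of brightness in these contrasts was not tested. These figures describe the members, and no test set them against other genes.

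**Figure D1:**
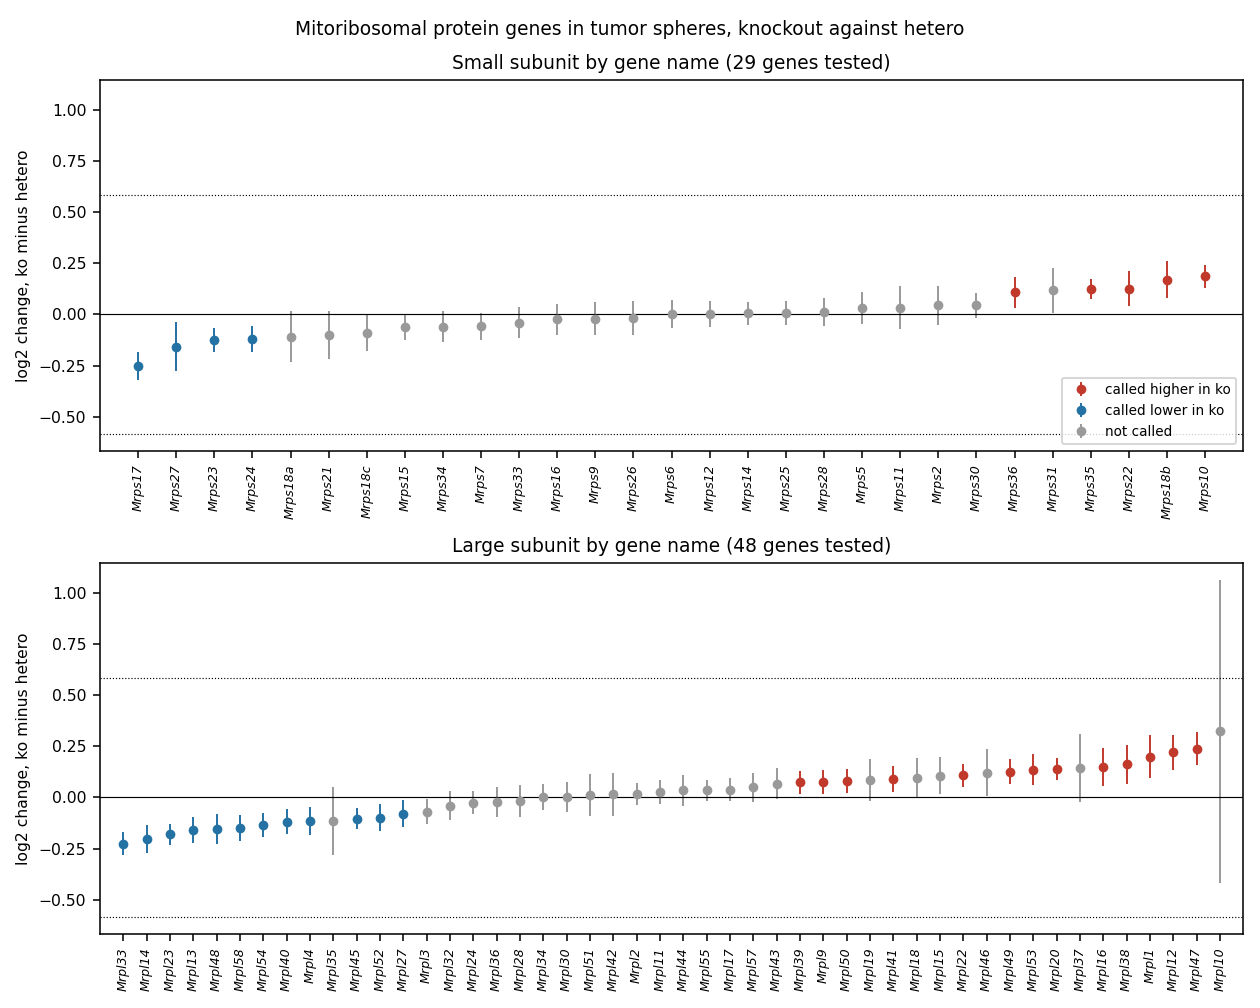
Change of each tested mitoribosomal protein gene, ko minus hetero, on the log2 scale (points), with 95% intervals from limma (bars), small subunit above and large subunit below. Dotted lines mark 1.5-fold in either direction. All points lie between -0.25 and 0.32, and the interval of Mrpl10 alone crosses a dotted line.

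Which members were called depended on how the arrays were set against each other. The count of 18 higher and 16 lower became 30 and 8 with quantile normalization and 27 and 4 with normexp background correction. It became 5 and 3 when each array was scaled by its median. Of 15838 genes tested, 5062 were higher and 4464 lower with quantile normalization, against 4403 and 5160 with 75th percentile scaling. The median change of all genes was 0.0047 with quantile normalization, 0.0031 with normexp and -0.013 with median scaling. Scaling by the 7 spike-in probes raised the median change of all genes to 0.39, against -0.03, and then 76 members were higher in ko and 0 were lower, as were 11490 and 1259 of all genes. Relative to the median of all genes under the same scaling, no member changed by 1.5-fold or more in any of these settings. The rises and falls given below are those of 75th percentile scaling, and none of the falls stayed a fall with spike-in scaling. In all 16 alternative settings that were run on 5 or 6 arrays, 5 of the 18 rises stayed past the threshold: Mrpl47, Mrpl12, Mrpl1, Mrps10 and Mrps18b. Of the 16 falls, Mrps17 alone stayed past it in the 15 settings other than spike-in scaling.

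**Figure D2:**
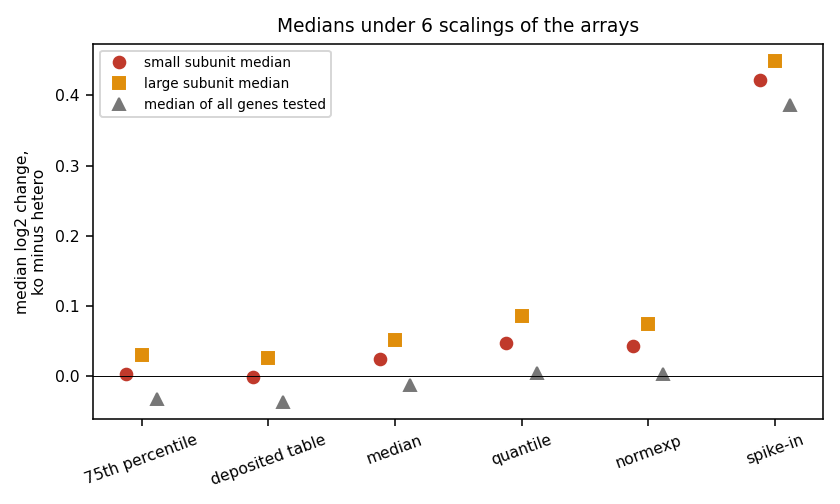
Median change, ko minus hetero, on the log2 scale, of the small subunit (circles), the large subunit (squares) and all genes tested (triangles) under 6 ways of scaling the arrays. The subunit medians move with the median of all genes, and stay within 0.1 above it in each scaling.

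In the small subunit 5 members rose, 4 fell and 20 of 29 did not pass the test. The median change was 0.0032 and the mean was -0.0077, so their signs differ. Mrps17, which has a bacterial counterpart among the proteins that bind the small ribosomal RNA, had signals of 3.31, 3.34 and 3.29 in ko spheres and 3.59, 3.57 and 3.53 in hetero spheres. Every ko array lay below every hetero array, and the change was -0.25 ± 0.027 (SE, adjusted p = 0.000648), or 1.19-fold lower in ko. Mrps10, also of bacterial descent, had signals of 3.69, 3.70 and 3.66 in ko against 3.51, 3.48 and 3.50 in hetero. Here every ko array lay above every hetero array, with a change of 0.19 ± 0.022 (SE, adjusted p = 0.00105).

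Among the other small subunit genes, those added in mitochondria supplied most of the calls. Mrps35 rose in ko, with signals of 1.41, 1.40 and 1.42 against 1.29, 1.29 and 1.27 in hetero and a change of 0.12 (adjusted p = 0.00321). Mrps22, mutations of which cause mitochondrial disease in humans, had signals of 1.75, 1.72 and 1.75 in ko against 1.63, 1.66 and 1.55 in hetero, a change of 0.13 (adjusted p = 0.0227). Groups did not overlap for either gene. Mrps27, a protein with pentatricopeptide repeats of the kind that bind RNA, fell in ko, with signals of 0.12, -0.04 and 0.02 against 0.21, 0.18 and 0.18 in hetero (change -0.16, adjusted p = 0.0335). Mrps23 fell by 0.13 on the log2 scale (adjusted p = 0.00549) and Mrps24, of bacterial descent, fell by 0.12 (adjusted p = 0.0098), each without overlap between the groups. The second probe of Mrps23 gave a change of 0.04, and with the mean of its probes the change was -0.041 and no longer called (adjusted p = 0.172). Mrps31 had 2.34, 2.24 and 2.36 in ko and 2.15, 2.24 and 2.18 in hetero, and its change of 0.12 missed the threshold (adjusted p = 0.0631), as did that of Mrps21, at -0.10 (adjusted p = 0.112). Both of these overlapped between the genotypes.

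Mammals carry 3 paralogs named Mrps18, of which Mrps18b and Mrps18c sit in the small subunit and Mrps18a in the large one. Mrps18b had signals of 4.34, 4.34 and 4.35 in ko against 4.13, 4.14 and 4.24 in hetero, and its change of 0.17 ± 0.035 (SE) passed the test (adjusted p = 0.00915). Mrps18a had 3.41, 3.34 and 3.40 in ko and 3.48, 3.58 and 3.41 in hetero, a change of -0.11 with an interval of -0.23 to 0.018 (adjusted p = 0.116). Mrps18c had 3.69, 3.64 and 3.65 in ko and 3.78, 3.69 and 3.78 in hetero, a change of -0.09 with an interval of -0.18 to -0.00095 (adjusted p = 0.075). Only Mrps18b passed the test, and the differences between the paralogs were not tested.

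Some names do not give the place of the protein. Mrps18a and Mrps30 are found in the large subunit in mammalian structures, and Mrps36 belongs to the oxoglutarate dehydrogenase complex of the citric acid cycle. Mrps30 had signals of 3.08, 3.05 and 3.02 in ko and from 2.99 to 3.02 in hetero, a change of 0.04 that missed the threshold (adjusted p = 0.166). Mrps36 had 3.90, 3.97 and 3.95 in ko against 3.87, 3.80 and 3.83 in hetero and rose by 0.11 on the log2 scale (adjusted p = 0.0265). Its second probe gave -0.016, and with the mean of its probes the change was 0.046 and no longer called (adjusted p = 0.138). With the genes placed by structure, 4 of 26 small subunit members rose and 4 fell (median -0.0074), and 13 of 50 tested large subunit members rose and 12 fell (median 0.03).

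In the large subunit 13 members rose, 12 fell and 23 of 48 did not pass the test, with a median change of 0.03 and a mean of 0.02. The members called made up 52.1% in the large subunit and 31.0% in the small one, both below the 60.4% of all genes. The difference between the subunits was not tested. The median signal of the members on an array, a level and not a change, was 3.44, 3.45 and 3.46 in ko and 3.41, 3.40 and 3.41 in hetero for the large subunit. For the small subunit it was 3.44, 3.38 and 3.40 in ko and 3.51, 3.52 and 3.50 in hetero, lower on every ko array although the median change was near 0. Within a genotype this median level varied by an SD of 0.0079 for the large subunit and 0.024 for the small one.

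Several of the falls lay in large subunit proteins of bacterial descent. Mrpl33 had signals of 6.33, 6.33 and 6.36 in ko spheres against 6.57, 6.55 and 6.59 in hetero spheres. Every ko array was below every hetero array, with a change of -0.23 ± 0.023 (SE, adjusted p = 0.000527). Mrpl14, the binding partner of the assembly factor MALSU1 on the face that joins the small subunit, had 5.44, 5.37 and 5.40 in ko against 5.62, 5.59 and 5.61 in hetero. Its groups did not overlap either, and the change was -0.20 ± 0.027 (SE, adjusted p = 0.00167). Mrpl23, whose bacterial counterpart lines the exit of the peptide tunnel, had 5.01, 4.98 and 5.01 in ko against 5.18, 5.18 and 5.18 in hetero. Its change of -0.18 (adjusted p = 0.000847) was several times the spread within either genotype.

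Further falls in ko were smaller. Mrpl13 had signals of 4.63, 4.66 and 4.61 in ko against 4.81, 4.81 and 4.78 in hetero, a change of -0.16 (adjusted p = 0.00296). Mrpl48, added in mitochondria, had 3.99, 3.97 and 3.97 in ko against 4.09, 4.17 and 4.13 in hetero, a change of -0.15 (adjusted p = 0.00571). Mrpl58, a peptidyl-tRNA hydrolase that frees stalled chains and is built into the ribosome, had 3.94, 3.94 and 3.97 in ko against 4.11, 4.12 and 4.06 in hetero, a change of -0.15 (adjusted p = 0.00424). None of these overlapped between the genotypes. The other 6 falls, in Mrpl54, Mrpl40, Mrpl4, Mrpl45, Mrpl52 and Mrpl27, ran from -0.14 to -0.08, and these genes are named because of their values. Mrpl52 turned to 0.06 with quantile normalization and with normexp, Mrpl27 turned to 0.03 with normexp, and Mrpl4 came to -0.0049 with normexp, none of them called there.

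The rises in the large subunit included Mrpl12 and Mrpl1, from the flexible stalks on either side of it. Mrpl12, which recruits translation factors and has been reported to bind the mitochondrial RNA polymerase, had signals of 4.37, 4.40 and 4.40 in ko against 4.19, 4.22 and 4.11 in hetero. Mrpl1, of the stalk by which spent tRNAs leave, had -0.79, -0.73 and -0.80 in ko against -1.04, -0.91 and -0.97 in hetero. The ko arrays were the higher ones throughout for both genes, with a change of 0.22 ± 0.035 for Mrpl12 (SE, adjusted p = 0.00314) and 0.20 ± 0.042 for Mrpl1 (SE, adjusted p = 0.0095). Mrpl47, of bacterial descent, had 2.69, 2.71 and 2.72 in ko against 2.44, 2.45 and 2.52 in hetero. Its groups did not overlap, and its change of 0.24 ± 0.031 (SE, adjusted p = 0.00154), or 1.18-fold, was the largest rise among members that passed the test. Mrpl38 rose by 0.16 on the log2 scale (adjusted p = 0.0134) and Mrpl16 by 0.15 (adjusted p = 0.0184). Mrpl20, Mrpl53, Mrpl22, Mrpl50 and Mrpl9, which are also named because of their values, rose by 0.08 to 0.14.

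**Figure D3:**
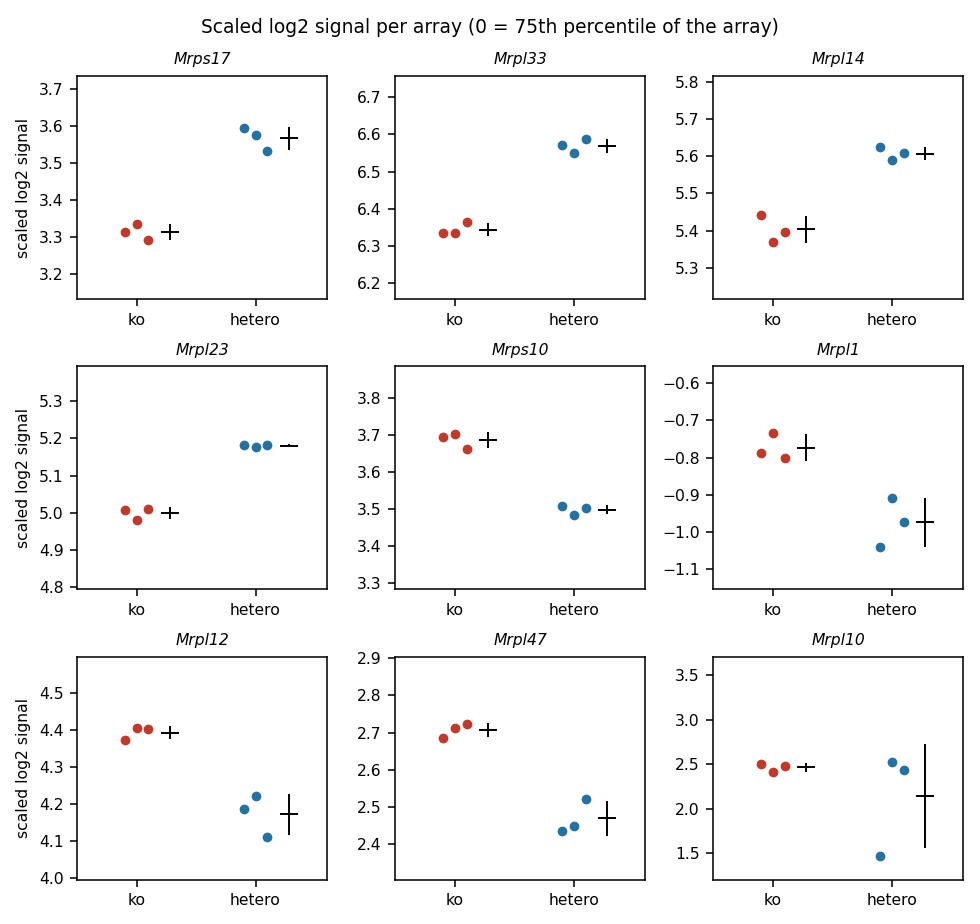
Scaled log2 signal on each array for 9 members, ko on the left and hetero on the right of each panel, with the mean and SD beside the points (3 arrays each). Mrps17, Mrpl33, Mrpl14 and Mrpl23 are lower on every ko array, Mrps10, Mrpl1, Mrpl12 and Mrpl47 are higher on every ko array, and Mrpl10 has a single low hetero array. Panels have different ranges on the vertical axis, the widest for Mrpl10.

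Mrpl10, the protein that anchors Mrpl12 to the ribosome, had the largest change of any member and did not pass the test. Its signals were 2.50, 2.41 and 2.48 in ko and 1.47, 2.52 and 2.43 in hetero. Only hetero replicate 1 was low, and the other hetero arrays lay among the ko arrays. The change was 0.32 ± 0.29 (SE), with an interval of -0.42 to 1.06 (adjusted p = 0.382), and it was -0.01 without hetero replicate 1. The dimmer probe for Mrpl10 showed no low array, with 1.34, 1.28 and 1.24 in ko and 1.28, 1.24 and 1.19 in hetero. Mrpl21, a large subunit protein of bacterial descent, was well above background on 0 of 6 arrays and was not tested. Its signals were -7.86, -6.57 and -7.36 in ko and -7.27, -7.34 and -7.12 in hetero, on its single probe.

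How far a change of this size can be read from a single probe is shown by the 22 members with a pair of probes. Both probes passed the background filter in all 22, and their changes had the same sign in 14. The difference between the probes' changes had a median of 0.047 and reached 0.42 on the log2 scale. For Mrps17 the second probe gave -0.26 beside -0.25, and for Mrpl47 both probes gave 0.24. Mrps18b gave 0.18 on its second probe beside 0.17. Other pairs differed, and 2 are named here because of their values. With limma on each probe, the dimmer probe of Mrps2 gave 0.32 (adjusted p = 0.018) beside 0.044. That of Mrps25 gave -0.23 (adjusted p = 0.0054) beside 0.0087. Both genes count as not called by their brighter probe.

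In 3 genes of the large subunit, each added in mitochondria, the probes were called in opposite directions. Here p-values were adjusted over all kept probes that had a gene symbol. The brighter probe of Mrpl41 had 4.15, 4.11 and 4.17 in ko against 4.04, 4.07 and 4.04 in hetero, while the dimmer one had -3.24, -3.37 and -3.44 in ko against -3.19, -2.90 and -2.97 in hetero. The changes were 0.09 (adjusted p = 0.0301) and -0.33 (adjusted p = 0.0281). Mrpl39 had 3.44, 3.48 and 3.47 in ko against 3.39, 3.40 and 3.38 in hetero on the brighter probe, and -3.40, -3.29 and -3.10 against -2.995, -3.06 and -3.01 on the dimmer one. Its changes were 0.07 (adjusted p = 0.0396) and -0.24 (adjusted p = 0.0453). Mrpl49 had 2.27, 2.31 and 2.32 in ko against 2.16, 2.19 and 2.16 in hetero on the brighter probe, and 1.89, 1.87 and 1.87 against 2.04, 1.95 and 2.05 on the other. Its changes were 0.13 (adjusted p = 0.00785) and -0.13 (adjusted p = 0.0198). For these 3 genes the direction is unsettled, although the text counts them as rises by their brighter probe. RefSeq also lists 6 pseudogene loci with a member's name, whose transcripts a probe could share.

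**Figure D4:**
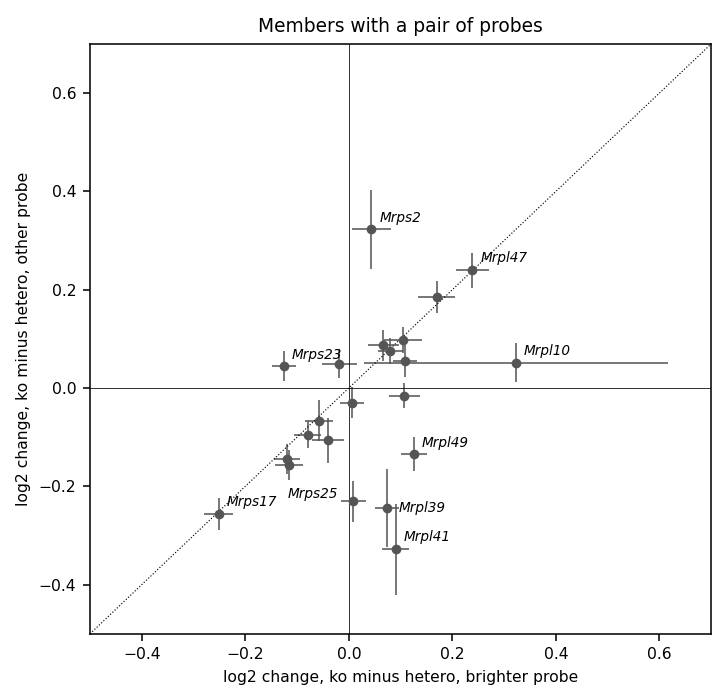
Change, ko minus hetero, on the log2 scale, of the brighter probe (horizontal) and the other probe (vertical) of the 22 members with a pair of probes, with standard errors as bars. The dotted line marks equal changes. Mrps17 and Mrpl47 lie on it, and Mrpl39, Mrpl41 and Mrpl49 lie in the quadrant of opposite signs.

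By descent, 16 of 45 tested proteins with a bacterial counterpart were called, 8 higher and 8 lower in ko. Of 32 proteins added in mitochondria 18 were called, 10 higher and 8 lower. These are 35.6% and 56.2%, against 60.4% of all genes, and in the small subunit the counts were 3 of 16 and 6 of 13. The median size of a change was 0.08 for proteins of bacterial descent and 0.11 for those added in mitochondria, and this difference was not tested. Both families thus held rises and falls in near equal numbers. The class added in mitochondria counts Mrps18a and Mrps18b, although their paralog Mrps18c is counted as bacterial. It also counts Mrps36, placed outside the ribosome above. Its rises include Mrpl39, Mrpl41 and Mrpl49, whose direction is unsettled. The shares depend on these choices.

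The summed signal of the 77 members leaned the other way from their median change. It was 1192, 1191 and 1205 times the 75th percentile on the ko arrays and 1227, 1218 and 1222 on the hetero arrays. The ko sums were all lower, while the median change was slightly above 0. The sums were taken with 75th percentile scaling only. With spike-in scaling every member's change was positive, from 0.17 to 0.74, so the lower ko sums depend on the scaling. The sum was not tested.

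Other ribosomal and mitochondrial genes of the same spheres are set beside the members here. Of 76 respiratory chain subunits 20 were called higher and 12 lower in ko, with a median change of 0.03. The share called was 42.1%, against 44.2% of the members and 60.4% of all genes. The median size of a change was 0.07, against 0.09 for the members, and 74 of the 76 intervals lay within 1.5-fold. Of 81 cytosolic ribosomal proteins tested, 0 were called higher and 73 lower, with a median of -0.25. That direction depended on the scaling: with quantile normalization 7 were higher and 14 lower (median -0.02), with normexp 4 and 15 (median -0.023), and with spike-in scaling 60 and 0 (median 0.17). The respiratory chain gave 57 higher and 2 lower with quantile normalization (median 0.15), 60 and 1 with normexp, and 76 and 0 with spike-in scaling. Of 15838 genes tested, 5062 were higher and 4464 lower with quantile normalization. With spike-in scaling most of all genes were higher too, as counted above, with a median change of 0.39. No test compared the groups.

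**Figure D5:**
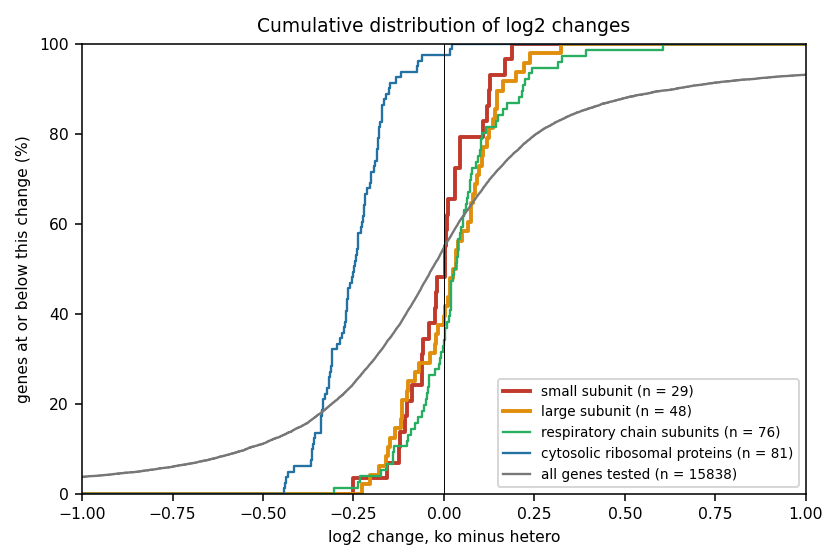
Share of genes (vertical, %) at or below each change, ko minus hetero, on the log2 scale (horizontal), for small subunit genes, large subunit genes, respiratory chain subunits, cytosolic ribosomal proteins and all genes tested. The curves of both mitoribosomal subunits and of the respiratory chain rise steeply around 0. That of the cytosolic ribosomal proteins rises around its median of -0.25 (0.17 with spike-in scaling), and that of all genes is the widest.

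Mitoribosomal proteins with names outside the Mrp series included a larger rise than any member. Aurkaip1, a small subunit protein first named as a partner of Aurora kinase A, had signals of 5.96, 5.95 and 5.98 in ko against 5.54, 5.47 and 5.50 in hetero. All ko arrays were higher, with a change of 0.46 ± 0.027 (SE, adjusted p = 6.34e-05), or 1.37-fold. Dap3, a GTP-binding small subunit protein also known from cell death, fell by 0.16 on the log2 scale in ko (adjusted p = 0.0153). Ptcd3, a pentatricopeptide repeat protein of the small subunit, rose by 0.10 (adjusted p = 0.0333). Gadd45gip1 of the large subunit changed by 0.03 (adjusted p = 0.354) and Chchd1 of the small subunit by -0.0074 (adjusted p = 0.838), and neither passed the test.

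Factors that build the mitoribosome and mature its RNA gave 3 rises and 5 falls among 27 tested, or 29.6% called against 60.4% of all genes. Trmt61b, a methyltransferase of mitochondrial tRNA and ribosomal RNA, had signals of -0.91, -0.79 and -0.93 in ko against -1.63, -1.68 and -1.54 in hetero. All ko arrays were higher, with a change of 0.74 ± 0.056 (SE, adjusted p = 0.000169). Tfb1m, which dimethylates the small ribosomal RNA, had 0.33, 0.22 and 0.18 in ko against 0.55, 0.58 and 0.51 in hetero. All ko arrays were lower, with a change of -0.30 (adjusted p = 0.0028). Malsu1, the factor that binds Mrpl14, fell by 0.16 on the log2 scale (adjusted p = 0.0031), and Mrpl14 fell by 0.20 as given above. Mterf4, which works with the RNA methyltransferase NSUN4 on the large subunit, rose by 0.31. Nsun4 itself changed by -0.057 and did not pass the test (adjusted p = 0.373). Whether binding partners changed together was not tested.

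The rest of the mitochondrial translation system was mixed as well. Of 16 translation factors 2 rose and 3 fell, or 31.2% called against 60.4% of all genes. Tufm, the elongation factor that brings tRNA to the ribosome, was up by 0.16 (adjusted p = 0.00576) in ko. Of 20 aminoacyl-tRNA synthetases and amidotransferase subunits 7 rose and 6 fell (65% called). Mars2, for methionine, rose by 1.05 on the log2 scale (adjusted p = 0.00159) and Iars2, for isoleucine, by 0.31 (adjusted p = 0.000109), while Vars2, for valine, fell by 0.54 (adjusted p = 0.000139) and Wars2, for tryptophan, by 0.48 (adjusted p = 8.4e-05). These synthetases thus spanned a wider range than the ribosomal proteins they serve. Of 11 genes of mitochondrial DNA transcription and replication 2 rose and 2 fell (36.4% called). Among them Top1mt, the mitochondrial topoisomerase, fell by 0.35 (adjusted p = 0.000186).

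Of 11 transcription factors tied to nuclear genes of mitochondria 4 were called, all higher in ko. These are 36.4%, against 60.4% of all genes called either way and 27.8% called higher. Myc, which drives genes of ribosome production, had signals of 1.33, 1.37 and 1.37 in ko against 0.96, 0.98 and 0.99 in hetero. All ko arrays were higher, with a change of 0.38 ± 0.023 (SE, adjusted p = 7.66e-05). Mycn was well above background on the 3 ko arrays and on 0 of 3 hetero arrays. It entered the test only through the genotype in which it was high, so the filter set the direction of its call. The 36.4% counts Mycn all the same. Its signal was at least 3.51-fold higher in ko, and the other 3 called factors were above background on all 6 arrays. Ppargc1a, a coactivator of mitochondrial genes, rose by 0.73 (adjusted p = 0.000343) and Esrra, a nuclear receptor it works with, by 0.20 (adjusted p = 0.000576).

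Promoters are shown because many mitochondrial protein genes carry words bound by NRF1, ETS-family factors such as GABP, and YY1 close to their start. RefSeq promoter windows on assembly GRCm38.p6, which span 250 bases before to 50 after the start, were found for 69 members, 66 of them with a single window. Exact words were searched on both strands, and a gene counted if any of its windows held the word. The ETS word CCGGAAG stood in 26 members (37.7%), against 16.6% of tested genes and 9.93% of all genes with a window. The YY1 word AAGATGGC stood in 12 (17.4%, against 4.42% of tested and 3.19% of all genes), and the NRF1 word GCGCATGC in 8 (11.6%, against 5.01% and 3.05%). The SP1 word GGGCGG was found in 34 members (49.3%, against 61.5% and 38.2%) and the E-box CACGTG in 5 (7.25%, against 10.73% and 8.09%). The ETS and YY1 words can overlap by 3 letters, and 0 members held them so. These shares are descriptions of the letters, not of binding.

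By call, the ETS word stood in 4 of 16 members called higher, in 7 of 13 called lower and in 14 of 39 not called. The 150 bases before the start follow for 6 members with an ETS word there, the pair with the lowest change, the pair with the highest and the pair nearest 0, with Mrpl10 left out. Capitals mark the ETS word, read as CCGGAAG or as CTTCCGG on the other strand, and the SP1 word. In Mrps27 the ETS word began 48 bases before the start and in Mrpl58 17, and both genes were called lower in ko. In Mrps22 it began 11 bases before the start and in Mrpl53 at 59 and again, on the other strand, at 16, and both were called higher. In Mrpl34 it began 37 bases before the start and in Mrpl51 90, and neither was called, with changes of 0.00096 and 0.0098.
Mrps27 (chr13:99344636-99344785, plus strand): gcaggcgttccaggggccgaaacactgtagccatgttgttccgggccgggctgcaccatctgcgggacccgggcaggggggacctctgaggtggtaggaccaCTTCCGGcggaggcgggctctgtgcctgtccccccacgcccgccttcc
Mrpl58 (chr11:115403602-115403751, plus strand): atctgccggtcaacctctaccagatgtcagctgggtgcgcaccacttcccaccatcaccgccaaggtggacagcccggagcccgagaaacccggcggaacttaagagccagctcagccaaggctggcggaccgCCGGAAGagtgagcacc
Mrpl53 (chr6:83108958-83109107, plus strand): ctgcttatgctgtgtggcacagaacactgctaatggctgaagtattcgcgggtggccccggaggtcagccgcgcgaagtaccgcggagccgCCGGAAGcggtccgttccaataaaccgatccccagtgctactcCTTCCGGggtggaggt
Mrps22 (chr9:98601680-98601829, minus strand): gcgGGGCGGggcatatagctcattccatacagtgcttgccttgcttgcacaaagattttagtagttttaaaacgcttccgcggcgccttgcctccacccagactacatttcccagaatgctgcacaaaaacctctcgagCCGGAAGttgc
Mrpl34 (chr8:71464776-71464925, plus strand): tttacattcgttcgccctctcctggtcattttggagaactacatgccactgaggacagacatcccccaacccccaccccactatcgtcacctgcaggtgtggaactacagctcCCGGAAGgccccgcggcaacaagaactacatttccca
Mrpl51 (chr6:125192050-125192199, plus strand): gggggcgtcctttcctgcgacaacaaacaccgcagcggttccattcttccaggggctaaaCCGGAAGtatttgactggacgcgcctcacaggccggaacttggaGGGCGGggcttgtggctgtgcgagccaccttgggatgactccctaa

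Of the members, 8 lie on chromosome 17, which also carries Frs3, by the gene order of GRCm38.p6. Mrps10 is the nearest, with 11 protein-coding genes between it and Frs3, and rose by 0.19 in ko as given above. Mrpl2 follows with 28 genes between and a change of 0.02 (adjusted p = 0.523), then Mrps18a with 49 and Mrpl14 with 52, which changed by -0.11 and -0.20. Mrps18b, with 199 genes between, rose by 0.17. The nearest 4 thus held 1 gene called higher, 1 called lower and 2 not called.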

How the data were processed

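Total RNA of the spheres was hybridised to 6 single-colour Agilent arrays, 3 per genotype. Spot signals came from Agilent Feature Extraction, in version 10.7.3.1 per the submitters' processing notes. The deposited scanner files hold a linear intensity per spot, from which background had been subtracted, per the file headers, with no scaling between arrays. Feature Extraction's flags for outliers and for spots well above background, other columns of the deposited files, were used as given. A deposited series table of intensity for 46572 probes matched the processed signal divided by a constant per array (402 to 484) within 1%, so it is linear and not centred by gene. Its column medians were 0.163, 0.159 and 0.159 for ko replicates 1 to 3, and 0.161, 0.159 and 0.169 for hetero replicates 1 to 3.

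Of 62976 spots per array, 3671 controls and 102 to 129 outlier spots were left out, and 0 were saturated. Spots of a probe were averaged on the log2 scale, which lost 27 of 55681 probes to flags. Accessions were matched to RefSeq genes of GRCm38.p6, which named 27220 probes and left 28434 without a symbol. The headers name mm9, so no gene coordinate was taken from that table, and the promoter positions are those of RefSeq's own sequences. After subtraction of each array's 75th percentile, probes well above background on at least 3 of 6 arrays were kept (35427), and the brightest kept probe stood for a gene. The test was limma's (version 3.58.1, lmFit then eBayes, under R 4.3.3) with Benjamini-Hochberg adjustment across 15838 genes and a threshold of 0.05. The fit was tested on simulated data, with changes near or above the largest called among the members. That test does not cover the smaller changes of most members. A gene below background in a group has its fold as a bound: on each array of that group its value was raised, where lower, to the dimmest signal of any probe well above background, before means were taken.

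All 78 members are counted. Those named are the 6 highest and 6 lowest changes per subunit, Mrps18a, Mrps18b, Mrps18c, Mrps30, Mrps36, Mrpl12, members whose probes were called in opposite directions, members without a kept probe, and up to 4 genes with the smallest p per mitochondrial list (2 per marker list). Members and lists were chosen with earlier results of these data known. Alternatives covered scaling, background, filter, probe choice, the series table, blocks and left-out arrays. The scanner files lack the mean signal planned for normexp, so the median signal was used with an offset of 50. The number of arrays limits the precision. Slide and scan were common to every array, so neither could be a block. For replicates 1 to 3 the ko arrays lay in slide columns 2, 4 and 2, and the hetero arrays in columns 1, 3 and 1. No column held both genotypes, so an effect of column cannot be told apart from genotype.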

Additional observations from a re-analysis of the deposited data

How the results depend on the processing

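The count of members called higher in ko, 18, became 30 with quantile normalization, 5 with median scaling, 76 with spike-in scaling and 9 in slide row 1 alone, which holds 2 arrays per genotype and was added after seeing the data. The count called lower, 16, became 8, 3, 0 and 9 in the same settings, and 4 with normexp background. Fewer arrays entered the fit in slide row 1 alone, and the cause of the other shifts was not tested. Without a single array, 12 to 17 were higher and 13 to 15 lower. The small subunit median, 0.0032, became 0.042 with normexp, 0.047 with quantile normalization and 0.42 with spike-in scaling, and ran from -0.0069 to 0.0017 without a single array. The large subunit median, 0.03, became 0.013 with the mean of a gene's probes, 0.051 with median scaling, 0.074 with normexp, 0.086 with quantile normalization and 0.45 with spike-in scaling, and ran from 0.021 to 0.034 without a single array. Relative to the median of all genes, the large subunit stayed between 0.04 and 0.09, and the small one between 0.01 and 0.07. In slide row 2, with 1 array per genotype and no test, the small subunit median was 0.02 and the large 0.04. Spike-in scaling turned the falls or negative changes of Mrps17 (0.17), Mrps27 (0.26), Mrps23 (0.29), Mrps24 (0.30), Mrps18a (0.31), Mrps21 (0.32), Mrps18c (0.33), Mrpl33 (0.19), Mrpl14 (0.21), Mrpl23 (0.24), Mrpl13 (0.26), Mrpl48 (0.26) and Mrpl58 (0.27) into positive ones. The mean of probes turned Mrpl39 to -0.085, Mrpl41 to -0.12 and Mrpl49 to -0.0046, and took Mrps23 to -0.041 and Mrps36 to 0.046, no longer called. Mrpl52 turned positive with quantile normalization and normexp, and Mrpl27 with normexp. Mrpl10 ran from -0.012 to 0.51 without a single array. Of the 29 members named by rule, between 2 and 6 lost their call without a single array, the most without ko replicate 3. Same-numbered arrays of the genotypes had deviations that correlated at -0.12, -0.018 and -0.0056, so the numbers do not pair them; with a replicate block 12 members were called higher and 14 lower, all of them among the 34. The deposited table (16 higher, 17 lower) and a stricter or absent background filter moved no count of members by over 1.5 times. The values rest on 3 arrays per genotype and on 1 probe for most members.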
